A study of Homo sapiens with 12 samples.

Results

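This report sets 4 µM tamoxifen against 1 µM tamoxifen in PANC-1 cells that stably express an inducible form of E47, and asks which genes changed further at the higher dose and which had reached their full change at the lower one. PANC-1 is an established line from a human pancreatic ductal adenocarcinoma. The comparison takes the 4 arrays titled 4 µM tamoxifen and the 4 titled 1 µM tamoxifen, 8 of the 12 arrays in the series. The other 4 arrays are of untreated cells and give the starting level of each gene. All 12 arrays are of cells with the inducible E47, both doses were given for 48 h, and the cells were grown in RPMI with 10% fetal bovine serum. The labels give neither a time nor a vehicle for the untreated cells, no array is of tamoxifen-treated cells lacking the inducible E47, and the treatment notes print the lower dose with a unit of volume where the titles give 1 µM. An effect of tamoxifen itself and an effect through E47 therefore cannot be told apart. Separate cultures are not stated for the 4 arrays of a dose, nor whether the line is 1 clone, so the p-values measure a spread that may be technical.

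E47 is a product of TCF3 and belongs to the E-proteins, basic helix-loop-helix factors that bind DNA as dimers at E-boxes, whose letters are CANNTG. ID proteins lack the DNA-binding region and hold E-proteins in inactive dimers. In the exocrine pancreas E-proteins pair with PTF1A at the genes of digestive enzymes, and in many cell types they are known to act on cyclin-dependent kinase (CDK) inhibitor genes and on exit from the cell cycle. Proteins made inducible by tamoxifen are usually fused to the ligand-binding part of the estrogen receptor, which keeps them inactive until the ligand binds.

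Of the 47323 probes on the array, 30113 carried 1 gene symbol, for 20046 genes. After probes that stayed at background were left out, 12451 named genes were tested, each through 1 probe, beside 6003 probes without a gene symbol. Levels below are log2 values of the background-corrected intensity, whose distribution is the same on every array as deposited, so each difference is relative to the array as a whole. Values of different genes come from different probes and are not compared with each other. The arrays within a dose were not alike. On the second principal component over all features (7.89% of the variance), 4 µM arrays 2, 3 and 4 lay at 14.2 to 17.0 and 4 µM array 1 nearer to the lower dose, at 3.68. On the same component 1 µM arrays 1 and 3 lay at -9.08 and -7.62, and 1 µM arrays 2 and 4 at -21.2 and -20.2. Counts are therefore given below also without 1 µM arrays 2 and 4, the pair farther from the 4 µM arrays on this component. Of the 137 tested genes picked for the text by the rules given at the end, 48 had over 1 detected probe, and values are those of the brightest. For 18 of them the probe used was called at the second step and another detected probe was not: ARRDC2, BID, CDC25A, CDKN1A, CTH, CYP2S1, FOXA2, HK2, HMGA1, JAG2, KRT18, LAMP3, MCL1, MYC, PMAIP1, TIMP2, TOM1L2 and UHRF1. For ID1 and CDKN1B it was the other way round. Epithelial markers were present at both doses. All 5 of 5 ductal epithelial markers were detected, with a summed intensity of 61100 to 74680 at 4 µM and 64960 to 77550 at 1 µM. Of 21 markers of fibroblasts, endothelium, blood, acinar and islet cells, 20 were on the array, of which 8 were not detected and the other 12 summed to 3465 to 3896 at 4 µM, against 2876 to 3522 at 1 µM. Of these 12, CELA3A, COL1A1, PRSS1 and LUM rose at the higher dose (33.3%, beside 5.7% of all named genes, and 2 of the 12 without 1 µM arrays 2 and 4). Whether this moved with any other result was not tested. TCF3 read 8.31, 8.09, 7.92 and 8.25 at 4 µM, against 8.90, 9.02, 8.51 and 8.71 at 1 µM, a difference of -0.64 ± 0.12 (adjusted p = 0.000461). Every 4 µM array lay below every 1 µM array for this gene, and it is not known here whether the probe also reads the introduced transcript.

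Raising the dose from 1 to 4 µM moved many genes by small amounts. Of 12451 named genes, 710 rose and 749 fell at 4 µM against 1 µM (5.7% and 6.02%, limma with Benjamini-Hochberg adjustment over 18454 features, called below an adjusted p of 0.05). Only 18 of the rises and 10 of the falls reached 2-fold, and 150 and 167 reached 1.5-fold. The 4 arrays at 4 µM and the 4 at 1 µM did not overlap in 590 of the rises and 592 of the falls. Groups failed to overlap in 13.4% of all features tested. The step from untreated cells to 1 µM was far larger, with 2978 named genes higher and 2843 lower (23.9% and 22.8%). Over all 18454 features the second step gave 892 higher and 879 lower calls (4.83% and 4.76%). With 1 µM arrays 2 and 4 left out these were 293 and 312. Leaving out a single array also lowered the counts by over 1.5 times in some cases. There were 567 higher and 566 lower calls without 4 µM array 2, and 567, 569 and 576 lower calls without 4 µM array 3, 4 µM array 4 and 1 µM array 4 in turn.

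Each gene was then placed by its 2 steps, the first from untreated cells to 1 µM and the second from 1 to 4 µM. A gene was graded when both steps were called in the same direction, which held for 342 named genes that rose at both and 299 that fell at both. A gene was at its full change at 1 µM when the first step was called and at least 2-fold, the second was not called, and the 95% confidence interval of the second lay within 0.5 (log2, 1.41-fold) of no change. That held for 316 higher and 193 lower genes, of which 5 lower ones were below background at both doses. Another 228 rose and 186 fell at the second step without a call at the first. In the remaining class the steps were called in opposite directions, 140 genes with a rise at the second step and 264 with a fall. Over all features, unnamed ones included, the graded class held 404 higher and 339 lower features (2.19% and 1.84%), and 169 and 140 without 1 µM arrays 2 and 4, while the full class held 375 and 232 (2.03% and 1.26%) and 373 and 240 without them. The members of the full class changed more than its counts. Only 302 of the 375 and 176 of the 232 stayed in it without 1 µM arrays 2 and 4 (80.5% and 75.9%). When 1 µM arrays 1 and 3 were left out instead, 252 and 139 stayed (67.2% and 59.9%). Both steps use the 1 µM arrays, so an error in the 1 µM mean shifts them in opposite directions, which adds to the opposite class and takes from the graded one.

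The largest rise from the lower to the higher dose was in HTR3C, which encodes a subunit of the serotonin-gated ion channel family. HTR3C log2 levels at 4 µM were 11.44, 11.56, 11.40 and 11.46, against 10.36, 10.15, 9.87 and 9.45 at 1 µM, a difference of 1.51 ± 0.13 (2.85-fold, ± standard error, n = 4 arrays per group, adjusted p = 4.1e-09). The groups lay well apart. All 4 untreated arrays were below background, so its first step was at least 8.64-fold and its whole change at 4 µM at least 24.6-fold. SUSD3, a membrane protein gene with a sushi domain, had levels of 9.90, 9.97, 10.17 and 10.18 at 4 µM and 9.01, 8.50, 9.08 and 8.54 at 1 µM, a rise of 1.27 ± 0.13 (adjusted p = 2.37e-08). For SUSD3 the second step was the larger one, the first being 0.80 ± 0.13. SSTR2, which encodes a somatostatin receptor, had levels of 9.29, 9.47, 9.44 and 9.40 at 4 µM, against 8.35, 8.14, 8.48 and 7.85 at 1 µM (second step 1.20 ± 0.12, first step 0.85 ± 0.12). Neither gene's dose groups overlapped.

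Others among the 12 largest rises had already risen strongly at 1 µM. S100A8, a calcium-binding protein of myeloid and stressed epithelial cells, had 11.25, 11.45, 11.42 and 11.54 at 4 µM and 10.67, 10.10, 10.36 and 9.77 at 1 µM, a second step of 1.19 ± 0.14 after a first of 3.49 ± 0.14. MAL, a proteolipid of apical sorting, rose by 1.07 ± 0.12 and ZP1, an egg-coat glycoprotein gene, by 1.11 ± 0.12, each from below background in untreated cells. AQP1, a water channel of pancreatic ducts among other epithelia, had 9.78, 9.68, 9.61 and 9.73 at 4 µM, against 8.48, 8.39, 8.82 and 8.49 at 1 µM (second step 1.16 ± 0.11, first step at least 3.24-fold). TESC, a calcium-binding regulator of sodium-proton exchange, rose by 1.10 ± 0.11 and RAP1GAP, which switches off the small GTPase RAP1, by 1.09 ± 0.12. ABCC8, the sulfonylurea receptor of ATP-sensitive potassium channels, rose by 1.09 ± 0.11. Its values were 8.0, 8.44, 8.0 and 8.05 at 4 µM and 7.06, 6.96, 7.12 and 7.0 at 1 µM, with array 2 high among the 4 µM arrays. BEX2 (1.14) and ESYT3, a tether between the endoplasmic reticulum and the plasma membrane (1.07), complete the 12, whose adjusted p-values ran from 4.1e-09 to 7.04e-07. All 12 were graded.

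The largest falls were led by a gene of mitosis. UBE2C, the ubiquitin-conjugating enzyme of the anaphase-promoting complex, had levels of 11.41, 11.17, 11.47 and 11.35 at 4 µM, against 12.32, 12.70, 12.56 and 12.74 at 1 µM, a difference of -1.23 ± 0.11 (2.35-fold lower, adjusted p = 7.36e-09). On this probe the first step was -0.65 ± 0.11, the smaller of its 2 steps. Another UBE2C probe had the opposite order, -0.51 ± 0.11 at the second step after -0.91, both called. KIFC1, a spindle kinesin, had 9.53, 9.55, 9.78 and 9.52 at 4 µM and 10.49, 11.19, 10.41 and 10.95 at 1 µM (-1.17 ± 0.13). The list held 3 other genes of chromosome segregation and cytokinesis, namely HJURP, the chaperone of the centromeric histone (-1.06 ± 0.13), AURKB, a kinase of the chromosomal passenger complex (-1.01 ± 0.15), and ANLN, an actin-binding protein of the cleavage furrow (-0.98 ± 0.12). DKK1, a secreted inhibitor of Wnt signalling, had 11.04, 11.01, 11.04 and 11.03 at 4 µM, against 12.02, 12.03, 12.15 and 12.55 at 1 µM (-1.16 ± 0.11). HMGA1, an architectural chromatin protein, fell by 1.02 ± 0.15 after a first step of -0.66, but its other detected probe differed by -0.087 ± 0.12 (adjusted p = 0.745). The remaining 5, AKAP12, RRAD, H1-10, TAOK1 and TBX2, had risen at 1 µM and are described with the opposite steps. In each of the 12 the dose groups did not overlap, which the rule that chose them required.

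**Figure D1:**
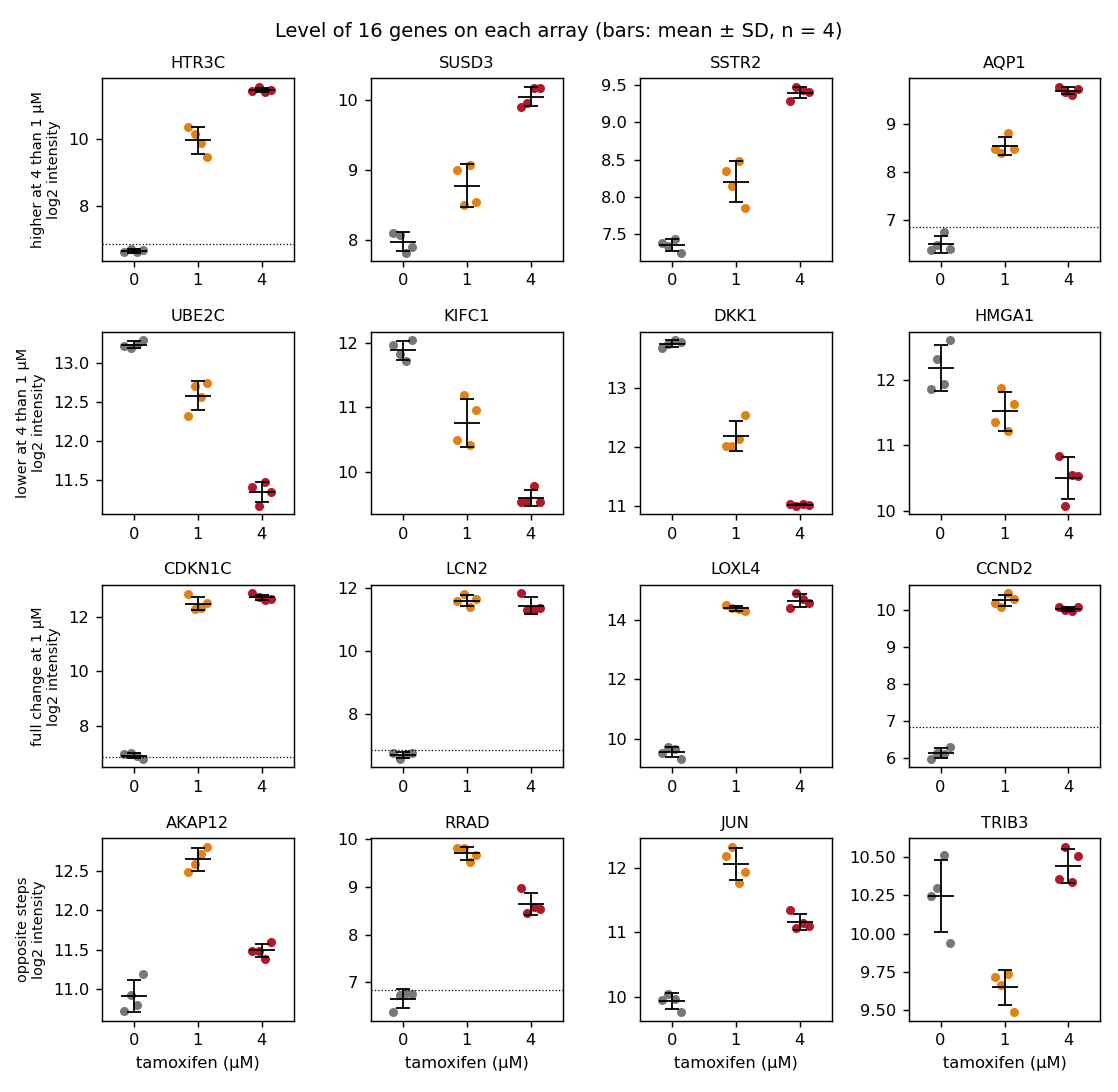
Log2 level (y axis) of 16 genes on each of the 12 arrays by tamoxifen dose (x axis, µM), 1 point per array with the mean and SD (n = 4), and a dotted line at the background threshold of 6.85 where it falls in range. In the top rows HTR3C and UBE2C separate 4 µM from 1 µM in opposite directions, in the third row CDKN1C and LCN2 have about the same level at both doses, and in the bottom row AKAP12 is highest at 1 µM.

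The promoters of 3 of these genes are shown because they stand for a graded rise (HTR3C), a full change at 1 µM (LCN2, described below) and a graded fall of a mitotic gene (KIFC1). Each runs from 250 bases before the start of the gene to 50 bases after it, from RefSeq on GRCh38.p14, in the direction of the gene. HTR3C lies on the plus strand at chr3:184052797-184053096, LCN2 on the plus strand at chr9:128149203-128149502 and KIFC1 on the plus strand at chr6:33391573-33391872. Capitals mark each E-box (CANNTG) in HTR3C and LCN2. In KIFC1 they mark TTTGAA, the core of the cell cycle homology region that repressor complexes bind in promoters of mitotic genes, and CCAAT, the box bound by NF-Y, each on either strand, so that the reverse strand's TTTGAA reads TTCAAA and its CCAAT reads ATTGG.
HTR3C: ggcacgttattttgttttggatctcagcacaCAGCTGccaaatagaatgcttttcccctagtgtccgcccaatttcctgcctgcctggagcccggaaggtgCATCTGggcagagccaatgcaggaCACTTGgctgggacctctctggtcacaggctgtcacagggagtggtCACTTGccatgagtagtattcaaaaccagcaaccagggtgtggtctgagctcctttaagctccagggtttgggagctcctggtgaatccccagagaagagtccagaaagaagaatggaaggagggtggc
LCN2: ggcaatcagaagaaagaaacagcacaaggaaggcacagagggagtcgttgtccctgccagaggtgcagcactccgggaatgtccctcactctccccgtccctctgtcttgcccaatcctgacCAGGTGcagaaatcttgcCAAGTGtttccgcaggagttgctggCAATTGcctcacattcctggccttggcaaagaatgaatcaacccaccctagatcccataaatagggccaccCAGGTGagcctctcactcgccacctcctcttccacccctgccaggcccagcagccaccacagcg
KIFC1: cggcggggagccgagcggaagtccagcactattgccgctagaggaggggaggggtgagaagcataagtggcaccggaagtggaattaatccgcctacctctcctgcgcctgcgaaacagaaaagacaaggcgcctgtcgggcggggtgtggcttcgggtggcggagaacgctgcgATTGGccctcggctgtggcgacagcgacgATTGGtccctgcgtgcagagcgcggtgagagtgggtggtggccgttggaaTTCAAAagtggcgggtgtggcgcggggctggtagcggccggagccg
HTR3C and LCN2 each hold 4 E-boxes, and KIFC1 holds 1 TTTGAA and 2 CCAAT.

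Promoter sequences were matched for 9932 of the 12451 named genes, and motifs were counted on both strands. The E-box letters CAGGTG were present in 30.5% of 262 promoters of genes graded upward, 20.7% of 242 of those full at 1 µM and higher, 13.9% of 173 of those that rose only at the second step, and 18.3% of the promoters of all genes tested. CAGCTG was present in 22.5%, 23.1% and 21.4% of the same 3 classes and in 16.9% of all genes tested. Both of these are contained in CANNTG, which 60.4% of all tested promoters held. Among genes graded downward, TTTGAA was present in 26.0% of 242 promoters and CCAAT in 50.4%, against 9.86% and 36.9% of all genes tested. The letters TTTNNCGC, which cover common E2F sites, were in 20.2% of them and in 10.2% of all. Genes full at 1 µM and lower held TTTGAA in 16.9%, CCAAT in 45.5% and TTTNNCGC in 13.6% of 154 promoters. In all 27305 promoters of the table the shares were 20.6% for CAGGTG, 17.7% for CAGCTG, 68.9% for CANNTG, 15.4% for TTTGAA, 35.7% for CCAAT and 6.9% for TTTNNCGC. These shares describe letters in a window of 300 bases and carry no test.

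Genes of cell division were the group with the most graded falls. Of 61 tested genes of the G2 and M phases, 51 fell at 4 µM against 1 µM and none rose (83.6%, beside 6.02% of all named genes), with a median difference of -0.64 against a median near 0 (0.004) over all named genes. All 51 had also fallen at the first step, and the median gene of this list had 66.7% of its 4 µM change at 1 µM. The mean log2 level of the list, relative to untreated cells, was -1.87, -1.84, -1.83 and -1.88 on the 4 µM arrays and -1.33, -1.19, -1.29 and -1.13 on the 1 µM arrays. Every 4 µM array thus lay below every 1 µM array, and within the 1 µM group arrays 2 and 4 were the highest. When those 2 arrays were left out, 43 members were still called lower. PKMYT1, an inhibitory kinase of CDK1, fell by 0.94 ± 0.14 and CDCA8, the chromosomal passenger subunit borealin, by 0.96 ± 0.15. The 10 members without a call at the second step included SPC24, CDC25C and CENPN, which were full at 1 µM, and BUB1B (-0.18, adjusted p = 0.362). MKI67, the proliferation antigen Ki-67, was above background on 0 of 4 arrays at 4 µM, 2 of 4 at 1 µM and 4 of 4 in untreated cells, so its second step has only a bound. Of the promoters of 52 members, 75% held TTTGAA and 73.1% held CCAAT.

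DNA replication genes split more evenly. Of 57 tested, 27 fell at the second step and none rose (47.4%), the median difference was -0.34, and 52 had fallen at the first step. The count was 10 without 1 µM arrays 2 and 4. CDC45, part of the replicative helicase, had 8.55, 8.81, 8.52 and 8.63 at 4 µM, against 9.57, 9.50, 9.56 and 9.30 at 1 µM (-0.86 ± 0.12, adjusted p = 4.5e-06). UHRF1, which maintains DNA methylation at replication forks (-0.84 ± 0.12), and ASF1B, a histone chaperone (-0.80 ± 0.12), were the next largest falls. All 3 had non-overlapping dose groups. Another 4 members were at their full change at 1 µM: the helicase subunit MCM6 (second step -0.20), the GINS subunits GINS3 (-0.061) and GINS4 (-0.15), and the licensing inhibitor GMNN (-0.12). Of these, GINS4 was above background on 1 of 4 arrays at 4 µM and 3 of 4 at 1 µM, so a further fall had little room to show. TTTNNCGC was present in 47.1% of the promoters of 51 members. Of 20 genes of G1 cyclins, CDKs and E2F factors, only CDC25A, a phosphatase that activates CDKs (-0.75), E2F2 (-0.59) and E2F7 (-0.47) fell and none rose (15% lower, beside 6.02% of all named genes). Without 1 µM arrays 2 and 4 the list had 2 lower calls, E2F2 being lost. E2F7, whose 1 µM array 2 read 7.70, below the other 1 µM arrays, was not called without 1 µM array 4, 4 µM array 1 or 4 µM array 2. CCND2, a D-type cyclin, had instead risen to its full change at 1 µM, and CCND1 differed by 0.036 between the doses (adjusted p = 0.933, interval -0.29 to 0.36). Among 24 histone genes 4 fell (16.7%, beside 6.02% of all named genes), with H1-10, H4C3 and H2AX the largest, while 8 had risen fully at 1 µM. Of the 4, 3 were called without 1 µM arrays 2 and 4, H2AX being lost.

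**Figure D2:**
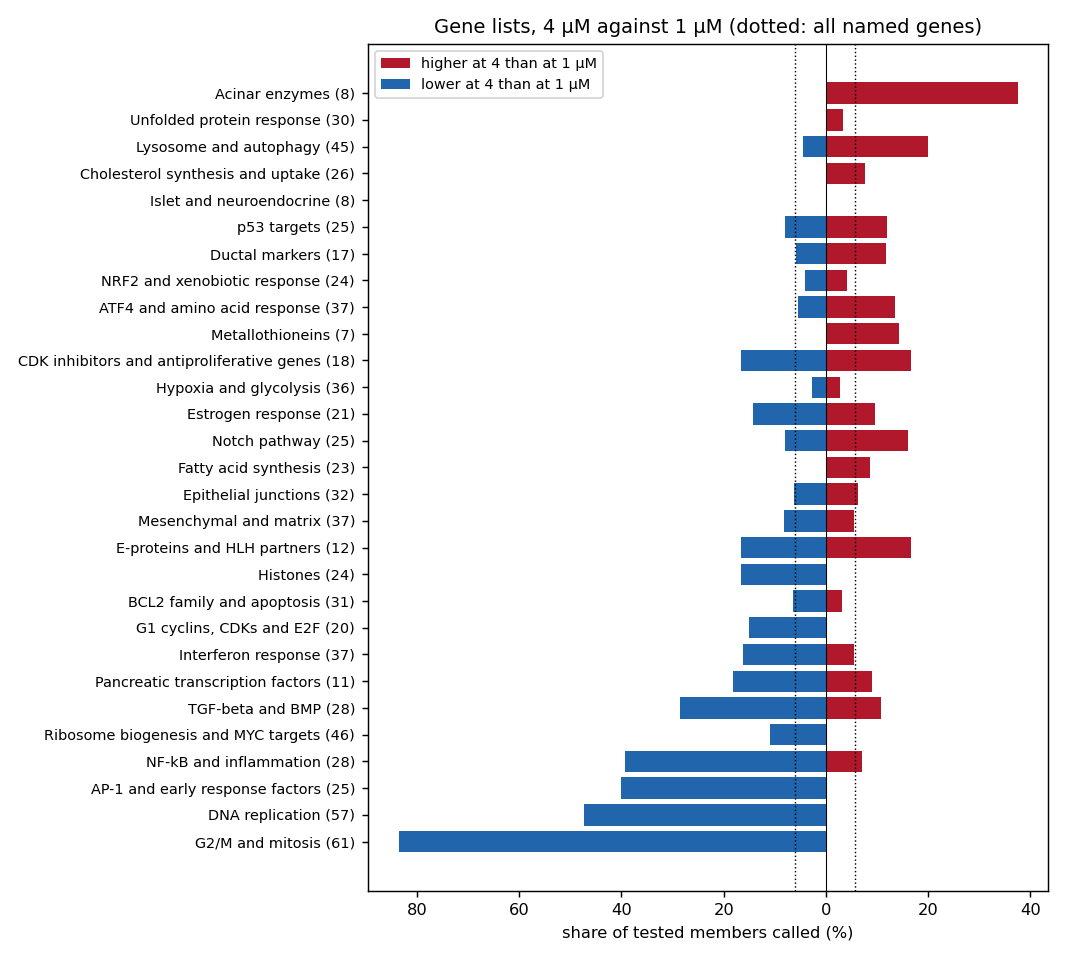
Share of the tested members of each gene list (rows, with the number tested) that were called higher (right) or lower (left) at 4 µM against 1 µM, in percent, with dotted lines at the shares over all named genes. The mitotic list stands out with 83.6% lower, followed by DNA replication (47.4%), early response factors (40%) and NF-kB genes (39.3%).

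CDKN1A (p21) was called at the second step, and CDKN1C (p57) was not. CDKN1C was at its full change, with a first step of 5.58 ± 0.12. CDKN1C log2 levels at 4 µM were 12.86, 12.71, 12.63 and 12.65, against 12.82, 12.27, 12.33 and 12.51 at 1 µM, and the groups overlapped, with a second step of 0.23 ± 0.12 and an interval of -0.0075 to 0.47. CDKN1A was graded, at 15.49, 15.50, 15.42 and 15.56 with 4 µM and 15.10, 14.71, 14.96 and 14.72 with 1 µM, a second step of 0.62 ± 0.11 (adjusted p = 0.000207) after a first of 3.23. Its other detected probe differed by 0.32 ± 0.11 at the second step (adjusted p = 0.054). CDKN1B (p27) differed by 0.32 ± 0.11 between the doses, which did not pass (adjusted p = 0.0567). Another CDKN1B probe did rise (0.50 ± 0.13, adjusted p = 0.00815), and the call was gained under 6 of 23 alternatives. TP53INP1, an antiproliferative p53 target, was graded (0.80 ± 0.11 after 1.51), as was GADD45G, a growth arrest gene (0.57 ± 0.13, not called without 1 µM arrays 2 and 4). KLF6 and GADD45B fell back at the second step (-0.54 and -0.39) after rises of 0.98 and 2.07. In all, 3 of 18 genes of this list rose and 3 fell, with a median of 0.05 (2 rose and 1 fell without 1 µM arrays 2 and 4). These are 16.7% in each direction, beside 5.7% higher and 6.02% lower of all named genes. Of 25 p53 target genes 3 rose, CDKN1A, TP53INP1 and the BH3-only gene PMAIP1 (0.58), and 2 fell, GDF15 and PLK2 (3 and 1 without 1 µM arrays 2 and 4). The p53 list thus had 12% higher and 8% lower.

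Among the 3 detected inhibitors of E-proteins, ID3 had reached its full change at the lower dose, with a second step of 0.052 ± 0.11 after a first of 3.32. The probes of ID1 differed. The brighter one was at its full change (-0.036 ± 0.12 after 1.57), and the other rose at both steps (0.62 ± 0.12, adjusted p = 0.00126, after 0.97). ID2 was graded by a small margin. ID2 log2 levels at 4 µM were 12.55, 12.51, 12.56 and 12.60, against 12.42, 12.05, 12.11 and 12.11 at 1 µM, a second step of 0.38 ± 0.11 (adjusted p = 0.0244). ID2 array 1 was the highest of the 1 µM group, and the call was lost without 4 µM array 3 or 4, without 1 µM array 2, 3 or 4, and without both 1 µM arrays 2 and 4. ATOH8, a basic helix-loop-helix factor, and CBFA2T2, a corepressor that E-proteins bind, had risen fully at 1 µM. TCF12, the E-protein HEB, differed by -0.13 ± 0.12 between the doses (adjusted p = 0.587). TCF4 and PTF1A were not detected. Of the 12 tested E-proteins and partners 2 rose at the second step, BHLHE41 (0.44) and LMO4 (0.39), and 2 fell, TCF3 and BHLHE40 (-0.36). These are 16.7% in each direction, beside 5.7% higher and 6.02% lower of all named genes. The calls of BHLHE41 and LMO4 were lost without several single arrays, 4 µM array 3 and 1 µM array 2 among them, and none rose and 1 fell without 1 µM arrays 2 and 4. Among 25 Notch genes, the ligands JAG2 (0.69 ± 0.12) and DLL1 (0.67 ± 0.14) and the target HES4 (0.44) were graded upward, whereas the targets HES1 (-0.12), HEYL (-0.23) and HES2 (-0.083) were full at 1 µM. In all, 4 Notch genes rose and 2 fell (16% and 8%), against 2 and 0 without 1 µM arrays 2 and 4, where DLL1 was not called.

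Digestive enzyme genes of the acinar cell, near or below background in untreated cells, included 3 that rose at both steps. Of 8 tested, 3 rose at 4 µM against 1 µM and none fell (37.5%, beside 5.7% of all named genes), and these 8 are the detected ones among 30 on the list. CELA3A, an elastase, had 9.13, 9.24, 9.41 and 9.29 at 4 µM, against 8.64, 8.51, 8.55 and 8.54 at 1 µM (0.71 ± 0.10, adjusted p = 1.49e-05). The trypsinogen gene PRSS2 had 9.23, 9.42, 9.68 and 9.47 at 4 µM and 8.78, 9.07, 8.88 and 8.76 at 1 µM (0.58 ± 0.12), and its near relative PRSS1, with which it may share probe signal, rose by 0.48 ± 0.12. These 3 genes were below background on all untreated arrays. PRSS1 was not called without 1 µM array 2 or without 1 µM arrays 2 and 4. Another trypsinogen gene, PRSS3, was at its full change at 1 µM (0.16 after 2.5). SNAI2, a repressor of epithelial genes, was graded upward (0.60 ± 0.13). CDH1, which encodes E-cadherin, had fallen fully at 1 µM (-1.13 then -0.15 ± 0.11), with 4 µM array 3 the lowest of its group. Of 32 genes of epithelial junctions 2 rose and 2 fell (0 and 1 without 1 µM arrays 2 and 4), and of 37 mesenchymal and matrix genes 2 rose and 3 fell (2 and 0 without them). These are 6.25% in each direction for junctions, and 5.41% higher and 8.11% lower for matrix genes, close to the 5.7% and 6.02% of all named genes.

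Beside CDKN1C, genes at their full change at 1 µM included LCN2, LOXL4 and APOD. LCN2, which encodes the iron-binding secreted protein lipocalin 2, had 11.82, 11.28, 11.28 and 11.35 at 4 µM and 11.59, 11.79, 11.37 and 11.63 at 1 µM, with overlapping groups and a second step of -0.16 ± 0.12 (interval -0.41 to 0.086). It was below background in untreated cells, so its first step was at least 26.8-fold. LOXL4, a lysyl oxidase of the matrix, had 14.39, 14.89, 14.71 and 14.57 at 4 µM and 14.51, 14.39, 14.36 and 14.31 at 1 µM (0.25 ± 0.12 after 4.83). CABP7, a calcium-binding protein, had 96.3% of its 4 µM change at 1 µM, and GJB2, the gap junction protein connexin 26, 100%. APOD, an apolipoprotein below background in untreated cells, had a first step of at least 11.1-fold and a second of 0.038 ± 0.13. The matrix proteoglycan BGN, above background on 1 of 4 untreated arrays, had a second step of 0.26 ± 0.11. CCND2 read 10.10, 10.01, 9.97 and 10.09 at 4 µM and 10.20, 10.10, 10.46 and 10.32 at 1 µM, a second step of -0.23 ± 0.11 with an interval of -0.45 to -0.0036. APOD and GJB2 stayed in this class under every alternative tried on them. Without 1 µM arrays 2 and 4, BGN, CABP7, CCND2 and the Notch target HEYL left it, and without 1 µM arrays 1 and 3, BGN, CDKN1C, LCN2 and LOXL4 did. The arrays whose omission alone took a gene out of the class were 4 µM array 1 for LCN2, LOXL4 and BGN, 4 µM array 3 for CDKN1C and BGN, 4 µM array 4 for CDKN1C and LOXL4, 1 µM array 1 for CDKN1C, LOXL4 and BGN, 1 µM array 2 for LOXL4, CCND2 and BGN, and 1 µM array 4 for HEYL.

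The falls that were complete at 1 µM came from varied genes. SLC25A18, a mitochondrial glutamate carrier, had 7.06, 7.10, 6.89 and 7.01 at 4 µM and 6.90, 7.17, 7.22 and 6.88 at 1 µM (-0.028 ± 0.11 after -2.72). SOX21, a transcription factor of the SOXB2 group, differed by 0.086 ± 0.11 between the doses after -2.56. CDS1, which makes CDP-diacylglycerol, differed by 0.14 ± 0.11 after -2.37, and the metal-binding MT2A by -0.21 ± 0.12 after -2.37. The Wnt antagonist SFRP1, the spindle checkpoint gene SPDL1, the sodium channel subunit SCNN1A and the protocadherin PCDH7 had second steps of 0.21, -0.052, 0.11 and 0.044. For none of these 8 did the interval of the second step reach 0.5 in size, as the class requires. MT2A and SFRP1 left the class without 1 µM array 1 or 3, MT2A without 4 µM array 2, and CDS1 without both 1 µM arrays 1 and 3. SLC25A18, SOX21, SPDL1 and PCDH7 stayed in it under all 22 alternatives, and SCNN1A under the 21 run on it. SLC25A18 levels at both doses lay close to the background threshold of 6.85, so a further fall had little room to show. Its place in the class therefore cannot separate a full change from this limit. For SCNN1A, which was not run under every alternative, whether a further fall had room to show was not tested.

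How much of the 4 µM change was present at 1 µM could be given for 1001 named genes above background on all 12 arrays and changed at least 2-fold at 4 µM against untreated cells. Among 482 higher genes the median share was 91.2% (quartiles 74.1% and 105%), and 156 exceeded 100%. Among 519 lower genes the median was 78.2% (67% and 87.9%), and 50 exceeded 100%. The median falling gene thus had a larger share of its change left for the second step than the median rising gene, a difference given here without a test. Within each direction 22 genes had less than 50% of their change at 1 µM. BEX2 (40.7%), SSTR2 (41.6%) and SUSD3 (38.7%) were among the higher ones and UBE2C (34.6%) and HMGA1 (39.3%) among the lower ones, each on its brighter probe only. The requirement of a level above background on every array leaves out genes below background in untreated cells, such as HTR3C and LCN2.

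**Figure D3:**
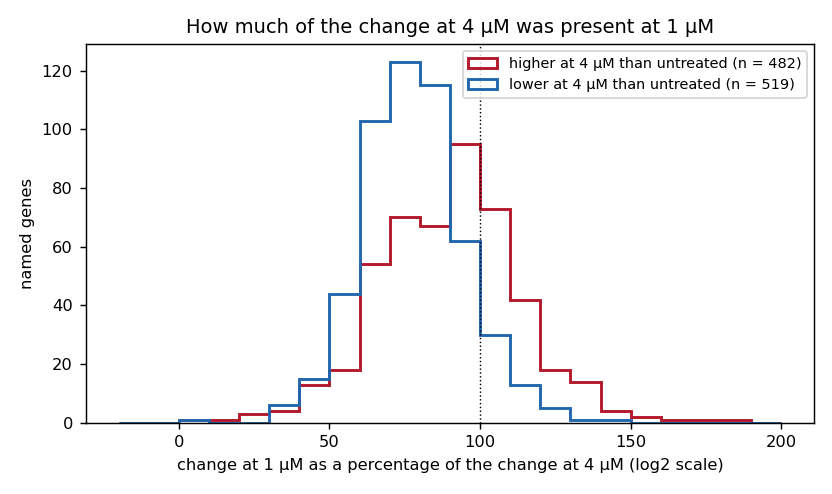
Number of named genes (y axis) by the change at 1 µM as a percentage of the change at 4 µM on the log2 scale (x axis, bins of 10), for 482 genes higher and 519 genes lower at 4 µM than in untreated cells, with values outside the plotted range put in the end bins and a dotted line at 100%. The curve of the lower genes peaks left of the dotted line around its median of 78.2%, and the curve of the higher genes reaches further past it.

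A separate set of genes responded at 4 µM without a call at 1 µM. Of the 228 rises, 210 had a 95% interval of the first step within 0.5 of no change, as had 164 of the 186 falls. PHGDH, the first enzyme of serine synthesis, had 12.81, 12.92, 12.50 and 12.47 at 4 µM, against 11.67, 11.95, 11.87 and 11.71 at 1 µM (0.88 ± 0.12, adjusted p = 2.97e-06), and 11.75 to 11.95 in untreated cells. GOLGA8B, a golgin-like gene of a repeated family whose copies a probe may not separate, rose by 1.01 ± 0.14. MAP6D1, a microtubule-stabilizing protein, rose by 0.83 ± 0.12, the interferon-induced ligase HERC5 by 0.82 ± 0.12, the lysosomal membrane gene LAMP3 by 0.80 ± 0.11 and AHSA2P, an HSP90 co-chaperone pseudogene, by 0.84 ± 0.11. Among the falls, EDN1, which encodes the vasoconstrictor endothelin 1, had 8.26, 7.92, 7.78 and 7.90 at 4 µM, against 8.98, 8.97, 8.66 and 9.12 at 1 µM (-0.97 ± 0.12). HAS3, a hyaluronan synthase, fell by 0.97 ± 0.11 and was above background on 1 of 4 arrays at 4 µM. NFKB2 (-0.74), the cytochrome CYP2S1 (-0.72), MYPN, a protein of the muscle sarcomere (-0.71), and the arrestin-like ARRDC2 (-0.70) followed. Some of these left the class when 1 array was omitted: LAMP3 without 1 µM array 2, HERC5 without 1 µM array 1 or untreated array 1, HAS3 without 1 µM array 4 or untreated array 4, and NFKB2 without 1 µM array 3 or untreated array 2. On other probes, MYPN fell at both steps (-0.34 then -0.52) and ARRDC2 fell at the first step only (-0.35 then 0.051). Over all features, without 1 µM arrays 2 and 4, calls at the second step only numbered 72 higher and 51 lower, against 310 and 227 (1.68% and 1.23%) on all arrays. With single arrays left out they ranged from 173 to 373 and from 112 to 262. They lay more than 1.5 times below the full count without 4 µM array 2, 3 or 4 or 1 µM array 4 in both directions, and without 1 µM array 2 for the falls.

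Opposite steps were most common among genes that rose at 1 µM and fell back at 4 µM. Of the 264 such genes, 135 were no longer called against untreated cells at 4 µM, and 7 were called below them. AKAP12, a kinase scaffold, had 11.49, 11.48, 11.39 and 11.60 at 4 µM, against 12.48, 12.58, 12.71 and 12.80 at 1 µM and 10.72 to 11.19 in untreated cells (-1.16 ± 0.11 after 1.74). RRAD, a small GTPase that restrains calcium channels, had 8.98, 8.46, 8.59 and 8.54 at 4 µM and 9.83, 9.81, 9.53 and 9.66 at 1 µM (-1.06 ± 0.12), with all untreated arrays below background. The 4 µM arrays of both genes lay below all 1 µM arrays. TBX2, a repressor of CDK inhibitor genes, differed by -0.99 ± 0.14 after 2.18, TAOK1, a kinase of stress signalling, by -1.01 ± 0.15 after 1.56, the linker histone H1-10 by -1.04 ± 0.14 after 0.35, and the probe for 28S ribosomal RNA (RNA28SN5), a gene present in many copies, by -0.92 ± 0.11 after 0.87. H1-10 passed narrowly at the first step (adjusted p = 0.0382) and left the class under 7 of 22 alternatives, among them the omission of 1 µM array 2 or 4 or untreated array 1 or 3. In the other direction 140 genes fell at 1 µM and rose at 4 µM, and 114 of them were not called against untreated cells at 4 µM. TRIB3, a pseudokinase induced by ATF4, had 10.36, 10.57, 10.34 and 10.51 at 4 µM, against 9.72, 9.66, 9.73 and 9.48 at 1 µM (0.79 ± 0.12 after -0.60). OGT, the O-GlcNAc transferase (0.79), the small nucleolar RNAs SNORA70 (0.74) and SNORD31 (0.61), TOM1L2, an endosomal adaptor (0.66), and ZBTB42, a zinc finger gene (0.63), were the next largest. Over all features the opposite class held 178 features with a rise and 313 with a fall at the second step (0.965% and 1.7%). It held 52 and 121 without 1 µM arrays 2 and 4, and 91 to 208 and 179 to 354 with single arrays left out, the lowest counts being without 4 µM array 2, 3 or 4 or 1 µM array 4. TOM1L2 was not called without 1 µM arrays 2 and 4, and OGT left the class.

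The immediate early response factors made up a part of this class. Of 25 tested, 10 fell at the second step and none rose (40%, beside 6.02% of all named genes), with a median of -0.30, and 8 of the 10 had risen at 1 µM. JUN, a subunit of the AP-1 factor, had 11.35, 11.07, 11.14 and 11.10 at 4 µM, against 12.18, 12.33, 11.77 and 11.94 at 1 µM and 9.75 to 10.05 in untreated cells (-0.89 ± 0.12, adjusted p = 3.74e-06). The related JUND (-0.67), JUNB (-0.66) and FOSB (-0.53) fell too, as did the stress factor ATF3 (-0.51 ± 0.11 after 3.84), EGR1 (-0.38) and MCL1, a short-lived survival protein (-0.69 ± 0.11). FOSL1 (-0.97 ± 0.15) and MYC (-0.46 ± 0.11) instead fell at both steps. SGK1, DUSP5, DUSP6, KLF2, KLF4 and KLF10 were full at 1 µM. The mean level of the list, relative to untreated cells, was 0.69, 0.62, 0.65 and 0.61 on the 4 µM arrays, against 0.92, 1.0, 0.90 and 1.01 on the 1 µM arrays, with no overlap. Of the 25, 5 were called lower without 1 µM arrays 2 and 4, and ATF3 and MYC were not among the calls. GDF15, a stress cytokine, and CCN1, a matricellular protein, fell by 0.52 and 0.61 after rises of 4.74 and 1.29. KRT18, a keratin, followed the same course (-0.51 ± 0.16, adjusted p = 0.0373), but was not called under 11 of 23 alternatives, and KRT19 differed by 0.064 (adjusted p = 0.812).

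NF-kB and inflammatory genes fell more often than they rose at the second step. Of 28 tested, 11 fell and 2 rose (39.3% lower and 7.14% higher), with a median of -0.27. The cytokine IL32 had 8.95, 9.12, 8.98 and 9.14 at 4 µM, against 9.61, 10.27, 9.94 and 10.03 at 1 µM (-0.91 ± 0.12 after 0.57). NFKB2, RELA and RELB, subunits of the factor itself, differed by -0.74, -0.62 and -0.58, and the inhibitor NFKBIA and its relative BCL3 by -0.53 and -0.62. The subunits NFKB1 (0.0086, adjusted p = 0.976) and REL (0.066, adjusted p = 0.82) were not called. CXCL8 (interleukin 8) and LTB (lymphotoxin beta) fell by 0.57 and 0.39 after rises of 2.45 and 3.67, whereas CXCL2 (0.45) and PTGS2 (0.39) were graded upward. Both CXCL2 and PTGS2 were below background on all untreated arrays, and above it on 2 and 3 of 4 arrays at 1 µM. The first step of CXCL2 passed narrowly (0.28, adjusted p = 0.048). Per array the list mean was 0.18, 0.16, 0.18 and 0.14 at 4 µM, against 0.36, 0.41, 0.37 and 0.44 at 1 µM. Without 1 µM arrays 2 and 4, 4 members were called lower and none higher, and RELA was not called. Of 28 genes of TGF-beta and BMP signalling 8 fell and 3 rose (28.6% and 10.7%, beside 6.02% and 5.7% of all named genes), led by PMEPA1, a feedback inhibitor (-0.82 ± 0.11), and BMP7, a ligand (0.72 ± 0.13). There 5 fell and 1 rose without 1 µM arrays 2 and 4.

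**Figure D4:**
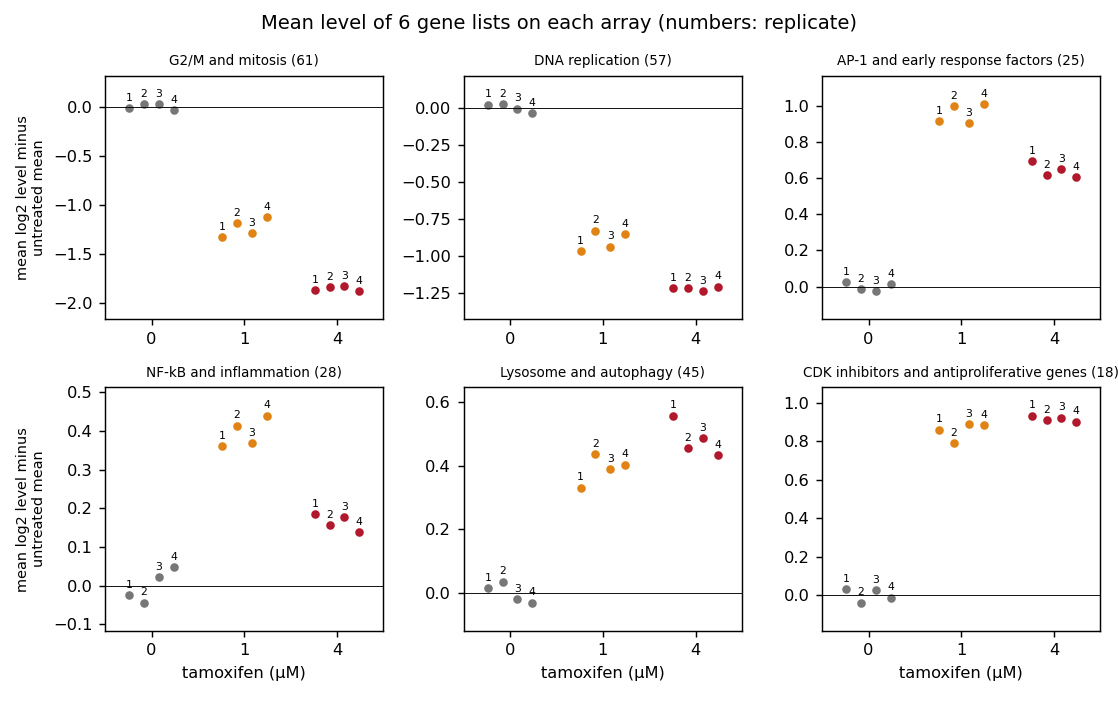
Mean log2 level of 6 gene lists relative to the untreated mean (y axis) on each array by tamoxifen dose (x axis, µM), with 1 point per array numbered by replicate. The mitotic and replication lists step down at each dose, the early response and NF-kB lists are highest at 1 µM, and 1 µM arrays 2 and 4 lie farthest from the 4 µM arrays in the mitotic list.

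Metabolic and stress lists had fewer calls. In the lysosome and autophagy list 9 of 45 rose and 2 fell (20% and 4.44%, beside 5.7% and 6.02% of all named genes), with a median of 0.13. CTSL, a cathepsin (0.80 ± 0.11), and LAMP3 were called at the second step and not at the first, but both left this class without 1 µM array 2 and without 1 µM arrays 2 and 4. Another LAMP3 probe was called at the first step (0.33) and not at the second (0.11 ± 0.11, adjusted p = 0.638), and another CTSL probe fell at the first step (-0.30). TFE3, a factor of lysosomal genes, fell (-0.44), a call lost without 4 µM array 2, 3 or 4 or 1 µM array 2. The list count depended on the 1 µM arrays, since 2 members were called higher and none lower without arrays 2 and 4. In the ATF4 and amino acid list 5 of 37 rose, led by PHGDH, TRIB3 and CTH, an enzyme that makes cysteine (0.66 ± 0.12), and ATF3 and PPP1R15A fell (13.5% and 5.41%, and 3 higher and 0 lower without 1 µM arrays 2 and 4). Of 26 cholesterol genes, INSIG1, a sensor that retains the sterol factor SREBP (0.60 ± 0.11), and SC5D, a late enzyme of synthesis (0.42 ± 0.11), rose and none fell. That is 7.69% higher, near the 5.7% of all named genes. HMGCS1 differed by 0.14 ± 0.12 (adjusted p = 0.567), and EBP, a sterol isomerase, had fallen fully at 1 µM. SC5D was not called without 1 µM arrays 2 and 4. Of 30 genes of the unfolded protein response 1 rose (3.33%, beside 5.7% of all named genes), ERO1B (0.40, not called without 4 µM array 2 or without 1 µM arrays 2 and 4). Of 46 genes of ribosome biogenesis and MYC targets 5 fell and none rose (10.9% lower, beside 6.02%, with 1 lower without 1 µM arrays 2 and 4).

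Estrogen response genes gave no common direction: 2 of 21 rose and 3 fell at the second step, with a median of 0.031 (1 and 1 without 1 µM arrays 2 and 4). These are 9.52% higher and 14.3% lower, beside 5.7% and 6.02% of all named genes. RET, a receptor tyrosine kinase, was graded upward (0.89 ± 0.11 after 3.31), and STC2, a secreted glycoprotein, rose by 0.42. IGFBP4, which binds insulin-like growth factors, fell by 0.51 ± 0.13, ADCY9, an adenylate cyclase, fell by 0.61 ± 0.11, and RARA, a retinoic acid receptor, fell by 0.50. ESR1, PGR and GREB1 were on the array and not detected. IGFBP4 was not called without 1 µM array 2 or 4. Among pancreatic transcription factors the foregut factors FOXA1 (-0.44) and FOXA2 (-0.63 ± 0.12) fell at the second step (FOXA1 was not called without 1 µM arrays 2 and 4). PDX1 had fallen below background on all 1 µM arrays and was at least 1.35-fold higher at 4 µM. That was a return to its untreated level, with means of 7.28 at 4 µM and 7.27 in untreated cells. Of 17 ductal markers 2 rose (11.8%), AQP1 and the calcium-binding protein S100P (0.94 ± 0.13), and KRT18 fell (5.88%), a call lost without 1 µM arrays 2 and 4. The zinc exporter SLC30A1 was graded upward (0.63 ± 0.11). Of 37 interferon response genes 6 fell and 2 rose (16.2% and 5.41%, beside 6.02% and 5.7% of all named genes). There 3 fell and 2 rose without 1 µM arrays 2 and 4. With all arrays, OAS3 fell at both steps (-0.40 then -0.67), and ISG20 fell back in part after a rise (-0.66 after 1.72). HERC5 and IRF7 were higher at the second step (0.82 and 0.60).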

How the data were processed

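Total RNA was labelled as biotinylated cRNA and hybridised to Illumina bead arrays, 4 per group, per the labels' protocols. The deposited values are probe intensities on a linear scale. The submitters' processing notes name GenomeStudio with no version, and its settings and normalization are not stated in them. Sorted values of the 12 columns are nearly identical, with a spread over columns of at most 1.65% of their mean at any rank, so no further normalization was applied. A further 24 columns of values and detection p-values, whose names match no sample label, were not used.

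Background was taken as the mode of the intensities (101.8, SD 15.8), and a probe was above it on an array over 127.7. Probes above it on at least 4 of 12 arrays were kept, with the probe of highest mean for each gene. Values were corrected with normexp (offset 50), taken to log2 and fitted with limma 3.58.1 (R 4.3.3) as 3 group means with 1 shared spread (9 residual and 24.0 prior degrees of freedom). Tests are two-sided with Benjamini-Hochberg adjustment over all 18454 features. Errors in the text are standard errors. Where every array of a group was below background, the fold is a bound, the brighter mean over the higher of the threshold and the dim value. The procedure was tested on simulated data. The number of arrays limits the precision.

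Members, classes, gene lists and named genes were chosen with earlier results of these data known. Named genes were the 12 largest rises and falls without overlap of the dose groups, the largest of each class, the 3 largest calls of each list, and 28 genes given in any case. Other list members named in the text were chosen after their values were seen. Alternatives changed the background correction, filter, probe choice, model, margin and arrays. Replicate numbers did not pair the arrays: same-number residuals correlated at -0.073 to 0.16, and 4 of 12 arrays correlated best with their own number.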

Additional observations from a re-analysis of the deposited data

Results flagged for a closer look

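Among 274 groups of 4 arrays of the named genes at 4 µM and 1 µM, 14 held 1 array far from the other 3 (by Dixon's test at the 95% level), and chance flags about 1 in 20 groups. At 4 µM, array 1 was high for CCN1 (13.67 log2, others 13.35 to 13.38) and LCN2 (11.82, others 11.28 to 11.35). Array 2 was high for ABCC8 (8.441, others 7.996 to 8.05) and CDS1 (8.349, others 8.182 to 8.206). Array 3 was low for CDH1 (8.847, others 9.076 to 9.118) and LAMP3 (8.121, others 8.28 to 8.306), and high for KIFC1 (9.781, others 9.525 to 9.546) and PRSS1 (8.083, others 7.929 to 7.952). Array 4 was high for GJB2 (14.28, others 14.09 to 14.1) and PMAIP1 (10.29, others 9.798 to 9.862). At 1 µM, array 2 was low for CDS1 (7.874, others 8.141 to 8.179) and E2F7 (7.702, others 8.145 to 8.175). Array 1 was low for HERC5 (8.279, others 8.558 to 8.59) and high for ID2 (12.42, others 12.05 to 12.11). The calls of LAMP3, KIFC1, ABCC8, CCN1, HERC5 and PMAIP1 at 4 µM against 1 µM held under every alternative run on them. Those of PRSS1, E2F7 and ID2 did not, as given with the genes.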

How the results depend on the processing

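Among 137 named genes over 23 alternatives, 3019 of 3122 values kept their side of the threshold, 93 lost the call (31 genes) and 10 gained it. None of the called ones reversed. Among the 3019, 22 values (7 genes) changed sign with no call in either setting. Requiring a level above background on all 12 arrays left 268 features graded upward against 404, with 234 in both. Those graded downward numbered 381 against 339. This filter leaves out genes below background in untreated cells, such as HTR3C. Without 1 µM arrays 2 and 4 there were 293 higher and 312 lower calls at 4 µM against 1 µM, 169 and 140 graded, 72 and 51 at the second step only, and 52 and 121 opposite, and the cause was not tested. Leaving out 1 µM arrays 1 and 3 instead gave no such drop, with 337 and 286 graded, 391 and 302 at the second step only, and 200 and 331 opposite. A margin of 0.4 gave 239 higher and 153 lower genes at their full change. Leaving out single arrays gave 567 to 968 higher and 566 to 955 lower calls at 4 µM against 1 µM, 173 to 373 and 112 to 262 at the second step only, and 91 to 208 and 179 to 354 opposite. It gave 287 to 409 and 240 to 353 graded, and 346 to 389 and 203 to 244 at their full change. With the replicate block there were 928 higher and 922 lower calls, and no count moved by over 1.5 times. Other settings kept all counts within 1.5 times. Low probes near the background threshold have compressed changes.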

Other observations

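Further members of the junction, matrix and glycolysis lists were called at the second step. COL1A1, the fibrillar collagen gene, rose by 0.63 ± 0.12 and TIMP2, an inhibitor of matrix metalloproteinases, fell by 0.43 after a rise of 1.0. TIMP2 was not called without 4 µM array 3 or 1 µM array 2. The tight junction genes CGN (cingulin) and CLDN1 (claudin 1) went opposite ways at the second step, 0.51 ± 0.12 and -0.58 ± 0.12, and the laminin receptor subunit ITGA6 rose (0.54 ± 0.11). Of the glycolysis genes, PKM fell (-0.58 ± 0.14) and HK2 rose (0.39 ± 0.11), and neither call held under every left-out array: PKM was lost without 1 µM array 4, and HK2 without 4 µM array 1, 2 or 3 or 1 µM array 1 or 3. CGN, ITGA6 and PKM were not called without 1 µM arrays 2 and 4.

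Over 18454 features and 12 arrays, 1 value lay more than 4 (log2) from the mean of the other 3 arrays of its group. It was ATF4, the factor of the amino acid response, which read 5.66 on 4 µM array 4 and 13.61 on average on the other 3. Its difference at 4 µM against 1 µM (-1.82, adjusted p = 0.198) was not called.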
